A study of Arabidopsis thaliana with 6 samples.

Results

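The DNA replication genes described here are 45 loci of Arabidopsis thaliana, of 30457 features listed in each library. They were chosen by locus, as subunits of the origin recognition complex (ORC, 7 genes), the licensing factors CDC6 and CDT1 (4), the MCM2-7 helicase (6), CDC45, GINS and MCM10 (6), the replicative DNA polymerases and primase (7), the sliding clamp PCNA and its loader (3), RPA (3), Okazaki fragment enzymes (2), ribonucleotide reductase (3), chromatin assembly factor CAF-1 (2) and the E2F transcription factors (2). No measured value entered that rule, but earlier results of these data were known when the genes were chosen. Poly(A) RNA of ovules was compared between wild type and the sgd mutant, with 3 libraries each. Both groups carry the qrt1 background, in which pollen grains stay joined in tetrads, and ovules were taken at stages FG1 to FG3, the early steps of embryo sac formation. Plants grew at 22 °C with 16 h light and 8 h dark. The design text gives about 6000 ovules without saying whether that is per library, and the locus and allele of sgd are not given in the sources used here, nor is the generation or share of mutant ovules in an sgd collection. The labels number the libraries 1 to 3 in each genotype and do not say that they came from separate plants, and a p-value here reflects only how these libraries vary, which may be technical variation.

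A cell copies its genome once per cycle. ORC marks origins, and CDC6 and CDT1 load the ring-shaped MCM2-7 helicase there before S phase; CDC45 and GINS then turn that ring into the moving helicase, behind which polymerase alpha with primase starts each strand and polymerases delta and epsilon extend it. PCNA tethers the polymerases, RPA covers single-stranded DNA, FEN1 and DNA ligase join Okazaki fragments, ribonucleotide reductase supplies the building blocks and CAF-1 lays histones on the new DNA. In plants and animals many of these genes are transcribed under E2F factors as cells enter S phase, and in ovules they serve the dividing integument and nucellus cells as well as the nuclei of the embryo sac.

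Values are FPKM, a fragment count divided by transcript length and by library total, so levels can be set side by side between genes. Where 3 values are given for a genotype, they are libraries 1, 2 and 3 in that order. Depth, estimated from the steps between low values, was 25700000, 34200000 and 40800000 fragments in wild-type libraries 1, 2 and 3. It was 24100000, 14200000 and 13500000 in sgd libraries 1, 2 and 3. These estimates were lower in sgd for libraries 2 and 3 and close to each other for libraries 1. Library 1 of both genotypes stood apart. The noncoding RNA locus AT3G06355 held 8.33% and 5.93% of the summed FPKM there against at most 0.322% in the other libraries, and summed FPKM was 528715 and 561173 against 750410 to 796250. Median-ratio factors of libraries 1, 0.742 and 0.805 against 1.06 to 1.21, were low too, so results are also given with the library number as a block, after median-ratio scaling (each library divided by its median ratio to the geometric mean profile) and without both libraries 1.

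RNA of the replication genes was lower in sgd ovules than in wild type. Of the 45 genes, all of which passed the filter of a mean of at least 1 FPKM, 12 fell in the comparison of the deposited values, none rose and 33 did not pass (limma, Benjamini-Hochberg adjusted p under 0.05). Among all 18100 features tested, 4.47% fell and 13.3% rose, against 26.7% of the replication genes fallen. At an unadjusted p under 0.05, 28 were lower and none higher, and the share of all features at that threshold was not computed. The 12 are the licensing genes CDC6, CDC6B, CDT1A and CDT1B, the origin genes ORC1A and ORC2, the helicase genes MCM2 and MCM3, and MCM10, RPA2A, TSO2 and FAS2. Changes are differences of mean log2(FPKM + 1), sgd less wild type, and their median was -0.93 over the 45 genes and 0.13 over all features. Without sgd library 1 the median over the 45 was -0.528.

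Counts of fallen genes depended on how the low libraries 1 were treated. With the library number as a block, 37 genes fell and 1, PSF3, rose, where 14.3% of all features fell and 26.5% rose. After median-ratio scaling 40 fell and none rose, where 18.2% of all features fell and 19.8% rose, and no replication gene was higher at an unadjusted p under 0.05 in that fit. Without both libraries 1, 37 fell. For this fit and those that follow, the share of all features was not computed. When single libraries were left out, the count moved from 12 to 4, 2 and 1 for wild-type libraries 1, 2 and 3, to 9 without sgd library 1, and to 20 and 4 for sgd libraries 2 and 3. Of the 12 fallen genes, 4, 2, 1, 9, 12 and 4 were called again in these fits, MCM10 in all of them. With no filter on low values none passed (limma, 18 lower at an unadjusted p under 0.05). In bulk ovules, fewer cells of a type and less RNA per cell cannot be told apart.

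Within each library number the shift went the same way and differed in size. In sgd library 1 the median replication gene was at 37.4% of its level in wild-type library 1, with 43 of 45 genes lower. In library 2 the median was 64.9% with 42 lower, and in library 3 it was 52.8% with 42 lower. The median of all tested features was 108%, 111% and 110% in the same pairs, so the replication genes lay well under the general level of each pair. All 3 sgd values lay below all 3 wild-type values for 23 genes, which is 51.1% of them, against 8.8% of all tested features. Together the 45 genes held 0.199% ± 0.00635 of the summed FPKM in wild type against 0.1015% ± 0.0245 in sgd (SD, n = 3), with no overlap and p = 0.1 in an exact two-sided permutation test, the smallest p that 3 against 3 allows.

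**Figure D1:**
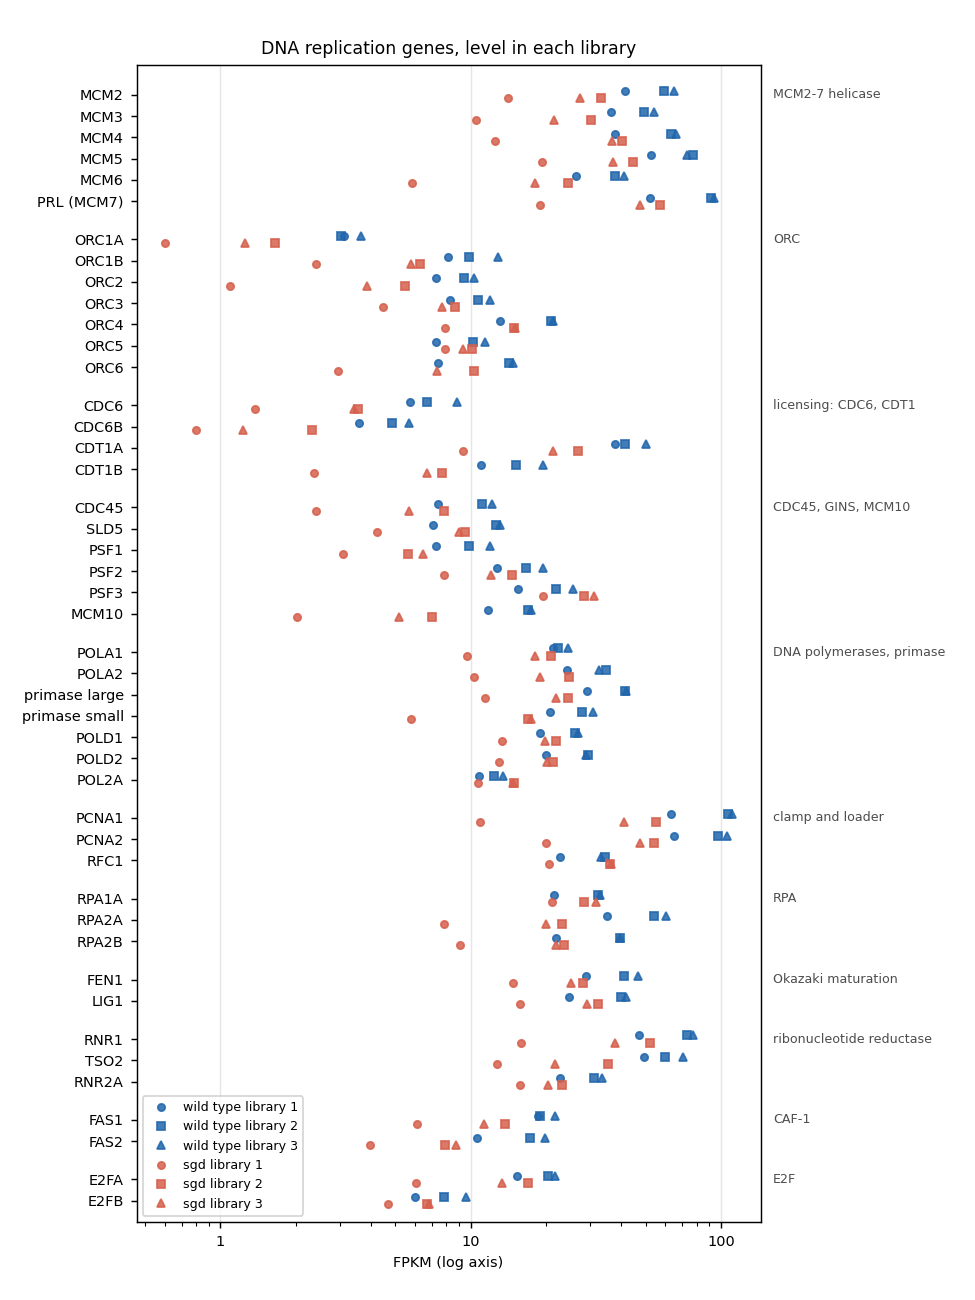
Level of each of the 45 replication genes in each library, as FPKM on a log axis, with blue for wild type, red for sgd and 1 symbol shape per library number. Most sgd points lie left of the wild-type points of the same shape, with sgd library 1 lowest. The groups overlap for 22 of the 45 genes, among them ORC5, PSF3, POL2A, RFC1 and RPA1A.

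**Figure D2:**
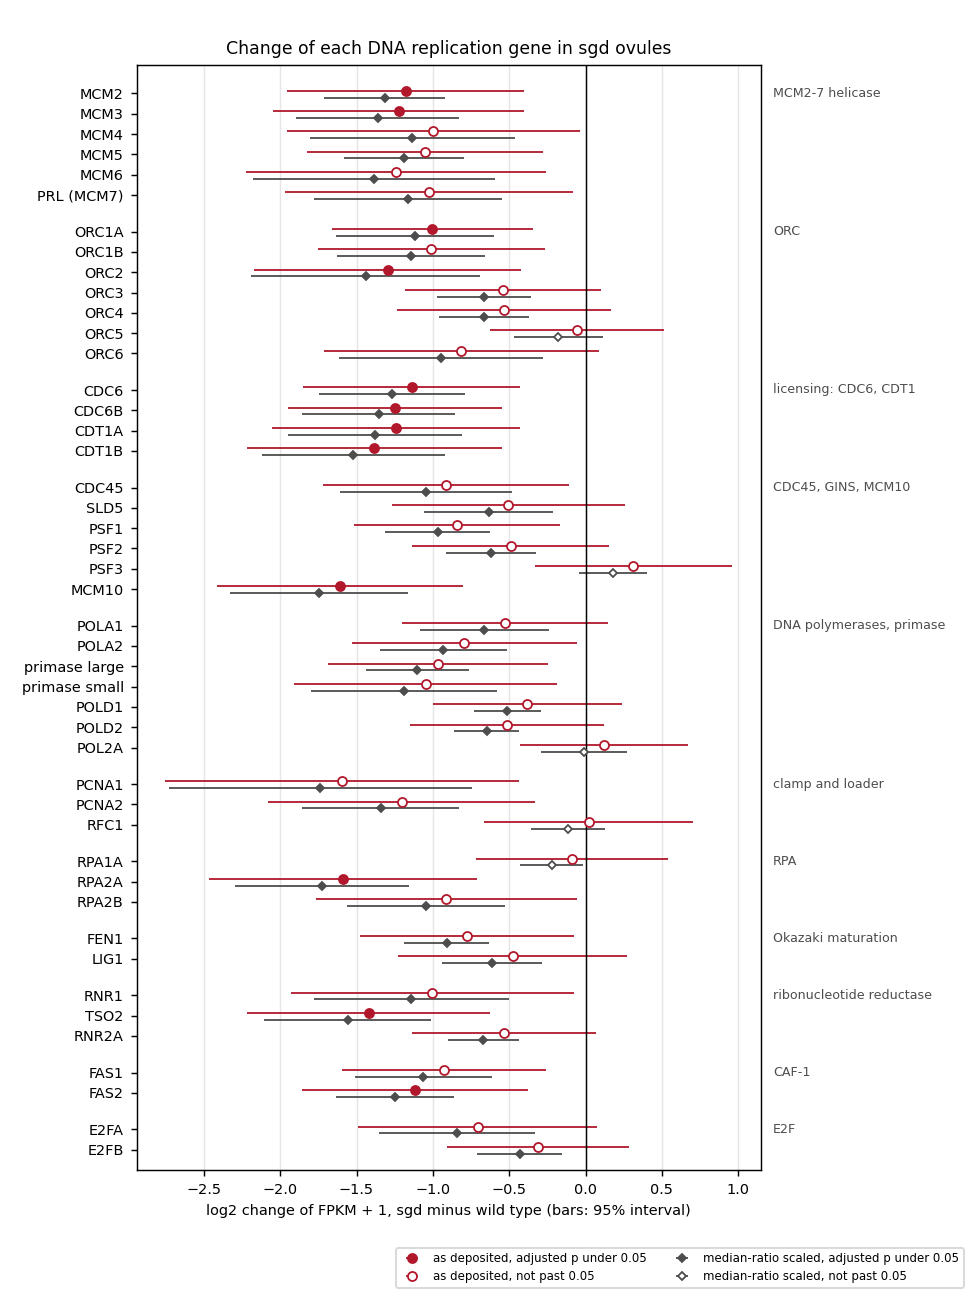
Difference in mean log2(FPKM + 1) between sgd and wild type for each gene, with 95% intervals from limma, for the deposited values (red circles, 12 filled for adjusted p under 0.05) and after median-ratio scaling (grey diamonds, 40 filled). Changes range from -1.61 for MCM10 to 0.31 for PSF3 as deposited.

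Many promoters of replication genes are known targets of E2F factors, so their sequences were searched for E2F-type matches, which the choice of genes did not use. The letters TTTCCCGC, TTTGGCGC, TTTCGCGC and TTTGCCGC were sought on both strands from 250 bases before to 50 bases after each annotated gene start in the RefSeq TAIR10.1 assembly. They occurred in 18 of 45 replication promoters, or 40%, and in 483 of 27443 promoters of all protein-coding nuclear genes, or 1.76%. Of the 22 matches, 20 began no more than 70 bases before the start or lay in the first bases of the gene. TTTCCCGC occurred in 15 of the promoters, TTTGGCGC in 5, TTTCGCGC in 1, that of FAS2, and TTTGCCGC in none. A match is a string of letters, and binding was not measured. Related strings were not sought, so a promoter counted as without a match may hold one. The windows of CDC45 and ORC6, for example, hold TTTGGCGG on either strand.

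The stretches below show the match, in capitals, at the centre of 100 bases read 5′ to 3′ along the gene, for the 5 helicase subunits that have one and for the other fallen genes that have one. They lie, in the same order, at chr1:16970154-16970253 on the plus strand, chr5:18773823-18773922 on the minus strand, chr2:7130711-7130810 on the minus strand, chr2:3527466-3527565 on the minus strand, chr5:18010660-18010759 on the minus strand, chr4:8422114-8422213 on the plus strand, chr2:15758546-15758645 on the plus strand, chr1:2232978-2233077 on the minus strand and chr5:25833109-25833208 on the plus strand (TAIR10.1).
MCM2: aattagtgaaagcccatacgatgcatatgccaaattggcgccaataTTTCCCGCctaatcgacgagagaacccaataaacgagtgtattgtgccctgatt
MCM3: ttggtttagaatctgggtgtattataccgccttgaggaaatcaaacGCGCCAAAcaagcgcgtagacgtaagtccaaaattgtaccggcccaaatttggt
MCM4: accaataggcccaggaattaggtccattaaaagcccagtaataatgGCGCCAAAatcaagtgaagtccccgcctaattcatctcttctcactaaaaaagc
MCM5: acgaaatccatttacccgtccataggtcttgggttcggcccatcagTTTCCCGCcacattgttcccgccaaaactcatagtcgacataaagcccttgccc
MCM6: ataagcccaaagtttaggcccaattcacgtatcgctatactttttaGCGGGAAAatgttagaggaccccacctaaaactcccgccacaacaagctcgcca
ORC1A: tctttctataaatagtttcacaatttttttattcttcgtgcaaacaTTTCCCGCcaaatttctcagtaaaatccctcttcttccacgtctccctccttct
ORC2: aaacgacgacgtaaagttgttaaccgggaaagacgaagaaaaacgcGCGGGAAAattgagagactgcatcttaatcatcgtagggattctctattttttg
CDC6B: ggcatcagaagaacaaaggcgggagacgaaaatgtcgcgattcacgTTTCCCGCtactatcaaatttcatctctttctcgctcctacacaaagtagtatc
FAS2: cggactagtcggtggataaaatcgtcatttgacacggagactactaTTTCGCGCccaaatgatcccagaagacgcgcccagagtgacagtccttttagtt
In MCM3, MCM4, MCM6 and ORC2 the match is on the opposite strand, so the capitals show its reverse complement. The match of MCM2 starts 14 bases before the gene start, that of MCM5 19, that of ORC2 9 and that of FAS2 10, while in MCM3 it lies 170 bases before.

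**Figure D3:**
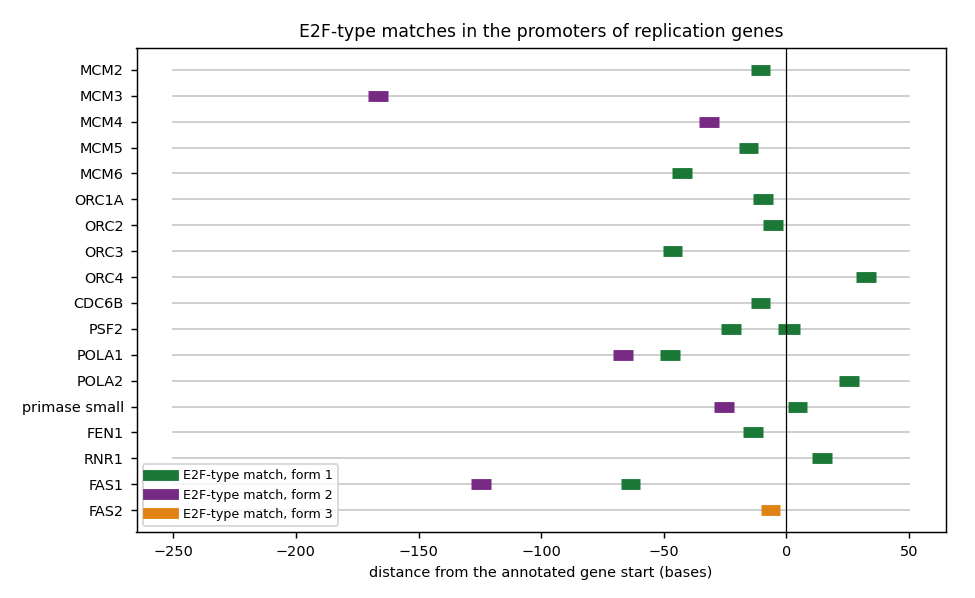
Position of each E2F-type match in the 18 replication promoters that hold one, as distance from the annotated gene start in bases, with grey lines for the window searched and green, purple and orange for the forms TTTCCCGC (form 1), TTTGGCGC (form 2) and TTTCGCGC (form 3). Matches gather close to the start, with those of MCM3 and 1 of FAS1 farther upstream.

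Falls were set beside the presence of a match as a description, with no test. Of the 18 with a match, 6 fell in the deposited values, 17 with the block and 18 after median-ratio scaling. Of the 27 without, 6, 20 and 22 fell. Their median log2 changes were -1.0 and -0.84, and the changes ran from -1.30 to -0.49 with a match and from -1.61 to 0.31 without. All 5 genes that did not fall after median-ratio scaling (ORC5, PSF3, POL2A, RFC1 and RPA1A) lack a match to the strings sought. So do MCM10, RPA2A, TSO2 and PCNA1, whose changes were among the largest. Over all tested features with a promoter, 10.8% of 351 with a match and 4.34% of 17308 without fell as deposited. After median-ratio scaling these shares were 37.3% and 18.1%. With the block, 108 of the 351 and 2446 of the 17308 fell.

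Origin recognition genes were expressed at low levels and 2 of 7 fell, 6 with the block and 6 after median-ratio scaling. ORC1A (AT4G14700), one of a pair of genes for the largest ORC subunit, was at 3.12, 3.03 and 3.64 FPKM in wild type against 0.60, 1.65 and 1.25 FPKM in sgd. Its groups did not overlap, and its change was -1.005 (SE 0.30, limma adjusted p = 0.0409). ORC2 (AT2G37560), a core subunit, was at 7.28, 9.41 and 10.3 FPKM in wild type against 1.09, 5.48 and 3.84 FPKM in sgd, a fall of 1.30 (SE 0.39, limma adjusted p = 0.0459), with sgd library 1 far below the other sgd libraries. ORC5 (AT4G29910), a further subunit, was at 7.24, 10.26 and 11.46 FPKM in wild type against 7.93, 10.11 and 9.36 FPKM in sgd, groups that overlapped, with a change of -0.06 (95% interval -0.63 to 0.52). ORC1B (AT4G12620), ORC3 (AT5G16690), ORC4 (AT2G01120) and ORC6 (AT1G26840) did not pass as deposited, with changes of -1.011, -0.54, -0.53 and -0.81, and fell with the block.

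All 4 licensing genes fell, in the deposited values and in the blocked and scaled fits, and none of their groups overlapped. CDT1A (AT2G31270), which brings the helicase to origins with CDC6, was the most abundant, at 37.9, 41.6 and 50.4 FPKM in wild type against 9.35, 26.9 and 21.3 FPKM in sgd. It fell by 1.24 (SE 0.37, limma adjusted p = 0.0408), from 43.3 ± 6.40 to 19.2 ± 8.98 FPKM (SD, n = 3). CDT1B (AT3G54710), its paralog, was at 11.1, 15.2 and 19.4 FPKM against 2.36, 7.68 and 6.68 FPKM and fell by 1.38 (SE 0.38, limma adjusted p = 0.0294). The highest sgd value, in library 2, was below the lowest wild-type value, in library 1, for each of the 4 genes. CDC6 (AT2G29680), an ATPase that helps to load the MCM ring on DNA, was at 5.75, 6.71 and 8.81 FPKM in wild type against 1.37, 3.56 and 3.42 FPKM in sgd (limma adjusted p = 0.0339). CDC6B (AT1G07270), the second CDC6 gene, was at 3.59, 4.85 and 5.65 FPKM against 0.80, 2.33 and 1.23 FPKM (limma adjusted p = 0.0214). As a group the licensing genes were at a median of 23.1%, 51.8% and 36.6% of wild type in libraries 1, 2 and 3.

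The 6 subunits of the MCM2-7 helicase were lower together, each in every library number. As deposited 2 fell, and 6 fell with the block, after median-ratio scaling and without both libraries 1. MCM2 (AT1G44900) was at 41.2, 59.3 and 65.2 FPKM in wild type against 14.1, 33.1 and 27.3 FPKM in sgd, a fall of 1.18 (SE 0.35, limma adjusted p = 0.0418). MCM3 (AT5G46280) was at 36.3, 49.3 and 53.9 FPKM against 10.5, 30.3 and 21.5 FPKM, a fall of 1.22 (SE 0.37, limma adjusted p = 0.0455). Both had every sgd value below every wild-type value. MCM4 (AT2G16440) had the largest p of the ring, with 37.6, 63.1 and 66.4 FPKM in wild type against 12.6, 40.2 and 36.6 FPKM in sgd, where sgd library 2 passed wild-type library 1 (limma adjusted p = 0.15, and 0.0187 with the block). MCM5 (AT2G07690), MCM6 (AT5G44635) and PRL (AT4G02060), the MCM7 subunit, had changes of -1.05, -1.24 and -1.02.

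The proportions within the ring are given beside its total. Summed over the 6 subunits, the level was 246.5, 378 and 394 FPKM in wild type against 81.1, 229 and 188 FPKM in sgd. PRL held 21.2% to 24.2% of that sum in wild type and 23.3% to 25.2% in sgd, and MCM5 held 18.6% to 21.4% and 19.4% to 23.8%. MCM6, the least abundant, held 9.96% to 10.6% in wild type and 7.21% to 10.7% in sgd, the lowest share in sgd library 1. An even division would give each subunit 16.7%. In every library PRL and MCM5 held the largest shares and MCM6 the smallest, with ranges that overlapped between genotypes.

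Among the genes that turn the loaded ring into a working helicase, MCM10 fell and the locus listed as PSF3 stood against the rest. MCM10 (AT2G20980), a factor needed for helicase activation, had the largest change of the 45 as deposited, next to PCNA1 at -1.60. PCNA1 had the larger change without wild-type library 1 (-1.855 against -1.781), sgd library 2 (-2.039 against -1.903) or sgd library 3 (-1.831 against -1.718). MCM10 was at 11.7, 16.99 and 17.49 FPKM in wild type against 2.02, 6.99 and 5.19 FPKM in sgd, without overlap, and fell by 1.61 (SE 0.36, limma adjusted p = 0.0127). The MCM10 call held in every single-library omission (limma adjusted p up to 0.0379). CDC45 (AT3G25100) and the GINS genes SLD5 (AT5G49010), PSF1 (AT1G80190) and PSF2 (AT3G12530) had changes from -0.91 to -0.49 that did not pass, and these 4 fell with the block and after median-ratio scaling.

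PSF3 (AT1G19080), the other GINS subunit, was at 15.4, 21.8 and 25.7 FPKM in wild type against 19.5, 28.3 and 31.0 FPKM in sgd. It was higher in sgd at each number, at 126%, 129% and 121% of wild type, while the groups overlapped. Its change was 0.31 (95% interval -0.33 to 0.96, limma adjusted p = 0.541), it rose with the block (adjusted p = 0.0479) and it did not pass after median-ratio scaling (change 0.18, adjusted p = 0.168). PSF3 shares 25.8% of its 100-base stretches with the transcript of AT3G55490, a locus with no gene name in the reference table, so the division of reads between them is uncertain. AT3G55490 was at 16.99, 26.5 and 31.8 FPKM in wild type against 10.2, 18.0 and 16.98 FPKM in sgd, lower at each number, with a change of -0.69 (limma adjusted p = 0.171, and 0.0126 with the block). The loci thus moved in opposite directions, and their joint level was not computed.

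None of the 7 polymerase and primase genes passed as deposited; 5 fell with the block and 6 after median-ratio scaling. The large primase subunit gene (AT1G67320), part of the enzyme that lays RNA primers, had the smallest p, with 29.1, 41.2 and 41.7 FPKM in wild type against 11.4, 24.4 and 22.0 FPKM in sgd. Its groups were apart, with a change of -0.97 (SE 0.33, limma adjusted p = 0.0666, and 0.00998 with the block). POL2A (AT1G08260), the catalytic subunit of polymerase epsilon on the leading strand, had the largest p, with 10.8, 12.4 and 13.4 FPKM in wild type against 10.7, 14.9 and 14.8 FPKM in sgd, and a change of 0.12 (95% interval -0.43 to 0.67). The remaining genes lay between. The small primase subunit gene POLA3 (AT5G41880) and POLA2 (AT1G67630), a regulatory subunit of polymerase alpha, had changes of -1.05 and -0.80. POLA1 (AT5G67100, also ICU2), the catalytic subunit of polymerase alpha, and POLD1 (AT5G63960) and POLD2 (AT2G42120), of polymerase delta, had changes of -0.53, -0.38 and -0.51.

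The PCNA genes were the most abundant of the 45 in wild type and had lower values in sgd at each number, while those of their loader subunit RFC1 overlapped. PCNA1 (AT1G07370) was at 63.3, 107 and 111 FPKM in wild type against 10.9, 55.1 and 41.1 FPKM in sgd, without overlap, and its change of -1.60 (SE 0.52) did not pass as deposited (limma adjusted p = 0.0599) and passed with the block (adjusted p = 0.0177). PCNA2 (AT2G29570) had a change of -1.20 and adjusted p of 0.06 and 0.0105 in the same limma fits. RFC1 (AT5G22010), the large subunit of the complex that opens the clamp, was at 22.8, 34.3 and 33.2 FPKM in wild type against 20.6, 36.1 and 36.3 FPKM in sgd. Its groups overlapped and its change was 0.02 (95% interval -0.66 to 0.70), with a sign that turned to -0.12 after median-ratio scaling.

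Among the RPA genes the middle subunit RPA2A fell and the large subunit RPA1A did not pass. RPA2A (AT2G24490), a middle subunit of the single-strand binding complex, was at 35.1, 54.2 and 60.1 FPKM in wild type against 7.85, 23.1 and 20.1 FPKM in sgd. The groups were apart and it fell by 1.59 (SE 0.39, limma adjusted p = 0.0197), to 34.1% of the wild-type mean. It did not pass without wild-type library 3 (limma adjusted p = 0.0546), and it shares 22.4% of its 100-base stretches with AT2G24480, which is listed at 0 in all libraries. RPA1A (AT2G06510), a large subunit, was at 21.6, 32.3 and 32.9 FPKM in wild type against 21.2, 28.4 and 31.6 FPKM in sgd, with a change of -0.09 (95% interval -0.72 to 0.54) and groups that overlapped. It was at 98.1%, 87.8% and 95.9% of wild type by number, and it fell after quantile normalization (limma adjusted p = 0.0428). RPA2B (AT3G02920), the paralog of RPA2A, had a change of -0.91 that did not pass (limma adjusted p = 0.139, and 0.00987 with the block).

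Okazaki fragment enzymes and E2F genes had smaller changes, none of which passed as deposited. FEN1 (AT5G26680), the flap nuclease, was at 29.0, 41.0 and 46.6 FPKM in wild type against 14.7, 28.0 and 25.3 FPKM in sgd, without overlap (change -0.78, limma adjusted p = 0.126, and 0.0112 with the block). LIG1 (AT1G08130), the replicative DNA ligase, was at 24.8, 39.8 and 41.9 FPKM against 15.7, 32.3 and 29.1 FPKM, with overlap (change -0.48, limma adjusted p = 0.396, and 0.0256 with the block). The transcription factor gene E2FA (AT2G36010), an activator of S-phase genes, was at 15.3, 20.4 and 21.7 FPKM against 6.04, 17.01 and 13.3 FPKM. E2FB (AT5G22220), also an activator, was at 5.97, 7.83 and 9.58 FPKM against 4.69, 6.68 and 6.80 FPKM. The E2F groups overlapped, with changes of -0.71 and -0.31 (limma adjusted p = 0.212 and 0.504), and both fell after median-ratio scaling and not with the block (adjusted p = 0.0510 and 0.112).

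Of the ribonucleotide reductase genes TSO2 fell, and of CAF-1 FAS2 fell. TSO2 (AT3G27060), a small subunit, was at 49.3, 59.9 and 70.3 FPKM in wild type against 12.8, 35.3 and 21.8 FPKM in sgd, without overlap, with a change of -1.42 (SE 0.36, limma adjusted p = 0.0214). RNR2A (AT3G23580), another small subunit gene, was at 22.7, 31.1 and 33.6 FPKM against 15.7, 23.1 and 20.4 FPKM, with a change of -0.54 (SE 0.27, limma adjusted p = 0.219, and 0.0183 with the block). The large subunit gene RNR1 (AT2G21790) had a change of -1.003 and fell with the block. FAS2 (AT5G64630), which helps to place histones H3 and H4 on new DNA, was at 10.6, 17.2 and 19.8 FPKM in wild type against 3.97, 7.93 and 8.73 FPKM in sgd, at 37.4%, 46.1% and 44.2% of wild type in libraries 1, 2 and 3. It fell by 1.12 (SE 0.33, limma adjusted p = 0.0435). Its partner FAS1 (AT1G65470) was at 18.7, 18.9 and 21.7 FPKM against 6.12, 13.7 and 11.3 FPKM, also without overlap, and its change of -0.93 did not pass (limma adjusted p = 0.0586, and 0.03 with the block).

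Ratios taken within a library do not depend on how libraries are scaled. Over 7 paralog pairs the groups were apart for 3, each with p = 0.1 in an exact two-sided permutation test, the smallest possible, and 0.233 after Benjamini-Hochberg adjustment over the 7. RPA2A over RPA2B was 1.60, 1.38 and 1.52 in wild-type libraries 1, 2 and 3 and 0.865, 0.978 and 0.919 in sgd, so RPA2A was the higher of the pair in wild type and RPA2B in sgd. TSO2 over RNR2A was 2.17, 1.93 and 2.09 in wild type and 0.813, 1.53 and 1.07 in sgd. ORC1A over ORC1B was 0.385, 0.307 and 0.283 against 0.250, 0.262 and 0.217. The ranges of CDC6B over CDC6, CDT1B over CDT1A, PCNA1 over PCNA2 and E2FA over E2FB overlapped between genotypes.

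A further 5 pairs were picked after their values were seen, because their ratios differ between genotypes, so they get no test. Each sets 1 of the 5 genes that did not fall after median-ratio scaling over another gene of the same machinery. PSF3 over PSF1 was 2.12, 2.23 and 2.14 in wild type and 6.28, 5.04 and 4.83 in sgd libraries 1, 2 and 3. Because PSF3 shares stretches with AT3G55490, the division of reads behind this ratio is uncertain. RPA1A over RPA2A was 0.615, 0.596 and 0.547 against 2.70, 1.23 and 1.57. ORC5 over ORC2 was 0.995, 1.09 and 1.12 against 7.28, 1.85 and 2.44, with sgd library 1 far above the others. POL2A over POLA1 and RFC1 over PCNA2 were 0.537 ± 0.0251 and 0.340 ± 0.0211 in wild type and 0.880 ± 0.206 and 0.820 ± 0.186 in sgd (SD, n = 3).

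**Figure D4:**
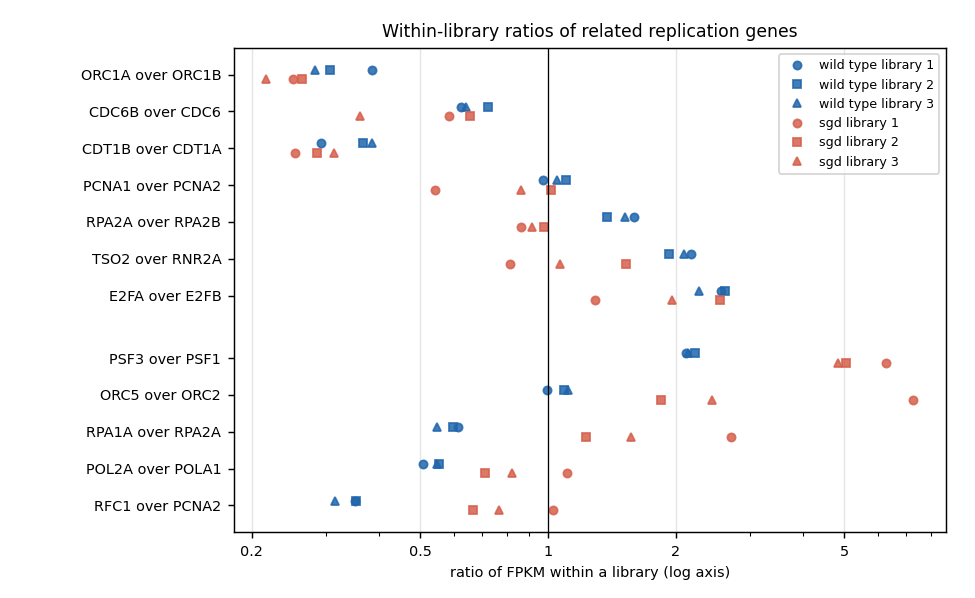
FPKM ratios within each library on a log axis, with blue for wild type, red for sgd and 1 symbol shape per library number; the upper 7 rows are paralog pairs and the lower 5 were chosen after the values were seen. Wild-type points of the lower rows lie close together and all sgd points lie to their right, from 0.667 to 7.28.

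Of 38 other replication genes, listed apart from the 45, 7 fell, none rose and 31 did not pass (limma), where 4.47% of all features fell. At an unadjusted p under 0.05, 13 were lower and none higher, with no share of all features computed. With the block 18 fell, and 26 after median-ratio scaling, where 14.3% and 18.2% of all features fell. Their median change was -0.43. DUT1 (AT3G46940), a dUTP pyrophosphatase that keeps uracil out of DNA, fell from 95.1 ± 27.3 to 27.0 ± 19.2 FPKM (SD, n = 3), with a change of -2.05 (SE 0.54, limma adjusted p = 0.0249). In the RPA family RPA3A (AT3G52630), RPA1B (AT5G08020) and RPA1D (AT5G61000) fell, with changes of -1.76, -1.58 and -1.41. RPA3B (AT4G18590) had a change of 0.01 and RPA1C (AT5G45400) one of -0.42, and neither passed as deposited. RPA1C fell after median-ratio scaling (limma adjusted p = 0.015).

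Both polymerase epsilon genes on that list fell. POL2B (AT2G27120), a low-expressed copy of POL2A, fell from 2.997 ± 0.808 to 0.663 ± 0.0833 FPKM and DPB2 (AT5G22110), the second subunit of polymerase epsilon, from 13.8 ± 2.89 to 6.15 ± 2.51 FPKM (SD over 3 libraries). Their limma adjusted p-values were 0.0154 and 0.0424. The small loader subunits RFC2 (AT1G63160), RFC3 (AT5G27740), RFC4 (AT1G21690) and RFC5 (AT1G77470) had changes of -0.31, 0.02, -0.30 and -0.37, none of which passed as deposited. RFC5 fell with the block (limma adjusted p = 0.0320), and RFC2, RFC4 and RFC5 fell after median-ratio scaling. DEL1 (AT3G48160), an atypical E2F that represses entry into endocycles, fell by 1.22. E2FC (AT1G47870), the partner genes DPA (AT5G02470) and DPB (AT5G03415) and RBR1 (AT3G12280), the retinoblastoma homolog that restrains E2F, had changes of -0.45, -0.37, 0.21 and -0.24 and did not pass as deposited. DPA fell with the block (limma adjusted p = 0.0414), and DPA and E2FC fell after median-ratio scaling.

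Markers of the tissue and of another cell type moved beside these genes. Of 11 ovule genes, 3 of 10 tested fell (ANT, BEL1 and SUP) and none rose. In 6 all sgd values lay below all wild-type values, and in SHP1 they lay above, at 176, 263 and 263 FPKM against 112, 170 and 161 FPKM in wild type. STK alone was at 341, 738 and 750 FPKM in wild type and 114, 314 and 280 FPKM in sgd. The list's summed level was 876 to 1612 FPKM in wild type against 608.5 to 1045 FPKM in sgd, with SPL listed at 0 in sgd libraries 2 and 3. Of 15 pollen genes, 7 of 12 tested rose and none fell. In 10 all sgd values lay above all wild-type values, and in GEX2, HAP2 and CNGC18 they lay below, at 0.4 to 1.11, 0.16 to 0.48 and 0.5 to 1.87 FPKM against 1.77 to 2.41, 0.83 to 1.36 and 2.15 to 2.38 FPKM. The list's summed level was 36.4 to 44.6 FPKM in wild type against 109.5 to 210.3 FPKM in sgd. The sperm lineage regulator DUO1 was listed at 0 to 0.04 FPKM in wild type against 0 to 0.21 FPKM in sgd. The part of cell composition and of depth in the results above was not tested.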

How the data were processed

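Poly(A) RNA of wild-type and sgd ovules was sequenced in 3 libraries each, prepared with an RNeasy kit and NEBNext kits per the labels' protocols. The authors deposited FPKM per feature, 1 file per library, per the file headers. The build is TAIR10 and the tools are CASAVA, cutadapt 1.15, TopHat2 2.1.1, RSEM and DESeq2, per the submitters' processing notes, which give no role or order. Features with a mean of at least 1 FPKM entered a two-sided limma 3.58.1 fit (R 4.3.3, lmFit, eBayes with a trend) on log2(FPKM + 1), with Benjamini-Hochberg adjustment over all 18100 and a threshold of 0.05. Such fold changes understate the change of low genes. Shares and ratios were compared with exact permutation tests. The limma fit was checked on simulated data, where it missed most of the smaller planted changes.

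The members, lists and tests were chosen with earlier results of these data known. Per-library values are given for the fallen genes and for the smallest and largest p in each complex. Deviations from group means correlated between same-numbered libraries at 0.524, 0.236 and 0.377, and the labels supply the numbers, so the block is reported. Across numbers 2 and 3 they were as high (0.354 and 0.431), so this mainly parts libraries 1 from the rest.

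Names were checked in RefSeq (TAIR10.1), which lists all 45 loci and the names used here for 41. Its promoters and transcripts were read from that assembly, whose name differs from TAIR10. Of the 45 genes, 9 share stretches of 100 bases, on either strand, with another transcript, up to 25.8% in PSF3, 22.4% in RPA2A, 19% in POL2A and 16.6% in PCNA2, mostly with a locus of neighbouring number. Whether counting used strand was not given in these sources, so reads there may be misassigned. Depth was fitted together with fragment length to low values of genes with 1 transcript, so it is an estimate. Fitted lengths were 190, 220 and 270 bases in wild-type libraries 1, 2 and 3 and 190, 350 and 370 in sgd. Of those values, 94.9% to 97.4% came within 0.2 of whole fragments. Alternatives were no filter, a pseudocount of 0.1, a stricter mean of 5 FPKM, 3 rescalings, the block, eBayes without a trend, and left-out libraries.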

Additional observations from a re-analysis of the deposited data

How the results depend on the processing

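Fallen members numbered 12 as deposited, 38 once totals were made equal, 40 with median-ratio scaling, 41 with quantile normalization, 37 with the replicate block (1 risen), 38 with both block and median-ratio scaling, 37 without both replicate 1 libraries, 1 to 20 with single libraries left out, and 0 with no filter (limma, 18 at an unadjusted p under 0.05). Fallen genes of the other replication list, 7 as deposited, numbered 23, 26, 26, 18, 29, 19, 1 to 9 and 1 in the same order, where omitting any wild-type library left 1 and omitting the third sgd library left 4. Shares of all features were computed only for the deposited values, the block alone and median-ratio scaling alone. The 12 fallen members were called again in all of the rescaled, blocked and replicate 1-free fits. MCM10 lost its call only with no filter (limma adjusted p = 0.107), and RPA2A there (0.134) and without wild-type library 3 (0.0546). The median change of the members kept its sign under all alternatives, at -0.928 as deposited, -1.163 to -0.528 with single libraries left out (the smallest without sgd library 1) and -0.739 without both replicate 1 libraries, and the share of summed FPKM kept its direction.

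Changes near 0 turned sign. RFC1 stood at -0.049 once totals were made equal, -0.115 after median-ratio scaling with or without the block, -0.163 after quantile normalization and -0.162 to 0.281 with single libraries left out. POL2A stood at -0.011 after median-ratio scaling with or without the block and -0.070 after quantile normalization. RPA1A fell with quantile normalization (limma adjusted p = 0.0428) and ranged from -0.280 to 0.071 and ORC5 from -0.231 to 0.067 with single libraries left out. With TTTCCCGC or TTTGGCGC only, 17 promoters held a match. The cause of these differences was not tested. With 3 libraries a group and libraries 1 apart, a gene that did not pass may still differ.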
